A study of Rattus norvegicus with 6 samples.

Results

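Circular RNAs (circRNAs) whose back-spliced span held 5 or more annotated exons were taken from the circRNA table of rat lung by its exon count, and no measured level entered the choice. They numbered 1741 of the 5216 circRNAs listed, or 36.4% of the 4783 exonic ones, and came from 1176 host genes. The lungs were from SD rats aged 7 weeks that received saline (control, 3 rats) or bleomycin at 7 mg/kg (model, 3 rats) into the trachea, and tissue was taken on day 28. Bleomycin injury is a widely used model of pulmonary fibrosis. One library was made per rat from total RNA freed of ribosomal RNA, so the values describe whole lung, in which fewer cells of a type and less RNA per cell cannot be told apart. The libraries held between 2037 and 2964 back-splice reads each.

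A circRNA forms when the spliceosome joins the donor site at the end of an exon to the acceptor site of an exon that lies upstream, so that the RNA closes into a ring without ends. The flanking introns often hold repeats or protein binding sites that bring the splice sites together, and rings lacking ends resist the exonucleases that degrade linear RNA. Only the read that crosses the back-splice junction tells the ring from the linear transcript. The exon number given here was therefore the number of annotated exons between the paired sites, and skipping of exons inside the ring was not observed by these counts.

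The lungs were checked by their linear RNA, in FPKM (fragments scaled by transcript length and library size). The 13 lung markers found in the table lay between 16.9 and 7677 FPKM in every library, led by Scgb1a1 and Sftpc, the products of club cells and of type 2 alveolar cells, while the 4 markers found for other tissues stayed at or below 0.407 FPKM. None of 12 fibrosis genes reached an unadjusted p of 0.05 or an adjusted p below 0.05 by limma between model and control, against 4.64% and 0.00508% of all 19678 genes tested, and 9 of the 12 had a higher mean in model. The paper judged its model by Masson staining and reported many fibrous nodules in the model group, a measure not used here. No 2 libraries were copies of each other. The labels and methods name no batch.

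Circles of 5 exons were the commonest, with 544 members, and 1123 (64.5%) held 5 to 7 exons. A further 331 (19.0%) held 10 or more. The largest number was 52 exons, in circRNA2472 of Macf1, a giant linker of actin and microtubules, which rested on 1 read in control 3. Among circles with at least 2 reads the most exons were found for circRNA2037 of Atm, the DNA damage kinase, with 27 exons and 4 reads, all in control 2. It was followed by circRNA4691 of Trpm6, a magnesium channel, with 22 exons and by circRNA4518 of Abcc9, a subunit of potassium channels, with 21, both with 2 reads in model 3. The circles of most exons were thus each seen in 1 rat.

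The median span from acceptor to donor was 17484 bases (quartiles 10191 and 31458), against 4627 bases for circles of 2 to 4 exons and 403 bases for those of 1 exon. A longer span follows from a larger exon number. The span divided by the exon number had a median of 2397 bases per exon, against 1620 for 2 to 4 exons. It also depends on the exon number, because a circle spans 1 intron fewer than its exons. At exactly 4 exons it was 2124 and at exactly 5 it was 2400. Spans over 100 kb were held by 53 members (3.04%) and by 14 circles of 2 to 4 exons (0.507%). Among the longest spans was that of circRNA1183 of Ptprm, a receptor tyrosine phosphatase, with 17 exons over 297413 bases and 2 reads, both in control 1.

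**Figure D1:**
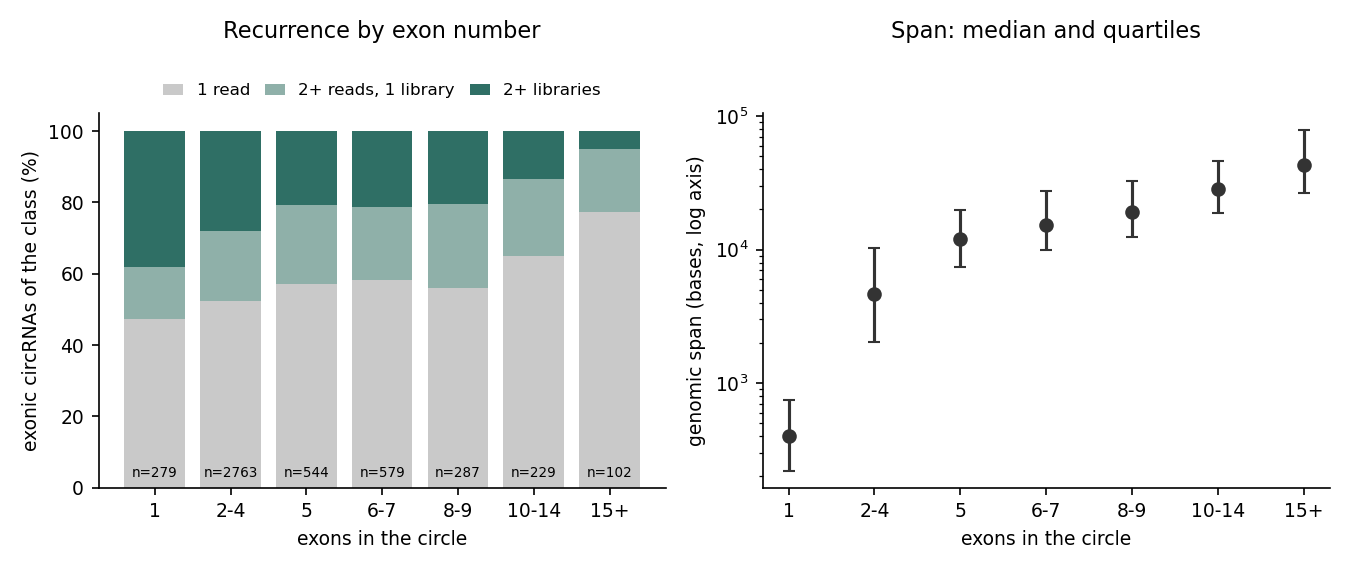
Left, exonic circRNAs by exon number (x axis), split into those with 1 read, with 2 or more reads in 1 library and with reads in 2 or more libraries, in % of each class; right, genomic span in bases on a log axis, with the median as a point and the quartiles as bars. The share found in 2 or more libraries was 20.6% at 5 exons and 4.90% at 15 or more, while the median span rose from 11998 to 42674 bases.

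Most members were seen once. A single back-splice read in the whole experiment was the record of 1038 members (59.6%), against 52.4% of circles of 2 to 4 exons and 47.3% of circles of 1 exon. Reads in 2 or more libraries were found for 330 members (19.0%), against 28.1% and 38.0% in those classes. By number of libraries, 1411 members were found in 1, 200 in 2, 65 in 3, 34 in 4, 18 in 5 and 13 in all 6. The 13 members in all libraries carried 503 of the 3880 member reads (13.0%). Just inside the threshold, circles of exactly 5 exons had a mean of 2.60 reads and 20.6% were in 2 or more libraries. Just outside it, the 715 circles of exactly 4 exons had a mean of 3.21 reads and 27.1% were in 2 or more libraries. At 15 or more exons, 77.5% of the 102 members had 1 read.

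Within libraries, the members that were detected had fewer reads and were less often found again. A detected member had 1.68 ± 0.117 reads (SD, 6 libraries), against 2.03 ± 0.112 for a circle of 2 to 4 exons in the same library. The difference of -0.353 ± 0.0764 reads was negative in 6 of 6 libraries (exact sign-flip permutation test, two-sided, p = 0.0312, the smallest that 6 libraries allow). Of the members detected in a library, 38.9% ± 2.34 also had a read in another library, against 54.4% ± 3.58 for 2 to 4 exons. This difference of -15.4 percentage points (SD 3.08) was likewise negative in 6 of 6 libraries (exact sign-flip permutation test, p = 0.0312). The libraries share circles in this measure and are not fully independent. In every library the lower value was that of the members, as the plot of paired classes shows.

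**Figure D2:**
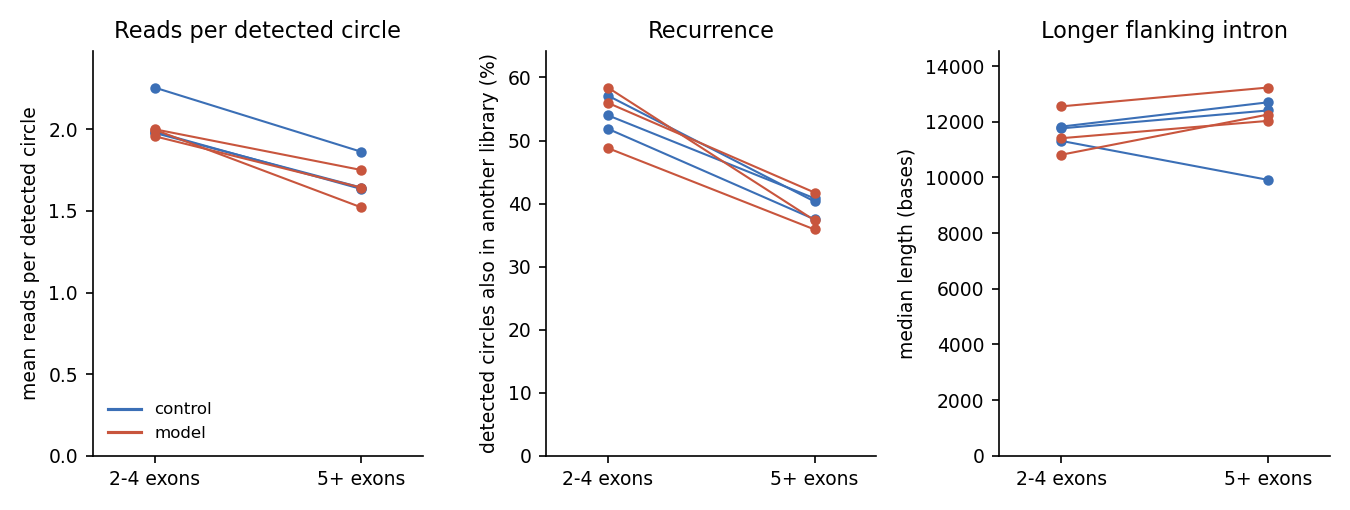
Values per library (lines; blue, control; red, model) for circles of 2 to 4 exons and of 5 or more exons: mean reads per detected circle, detected circles also found in another library (%), and the median length of the longer flanking intron (bases). The first 2 measures were lower at 5 or more exons in 6 of 6 libraries, and the intron length was higher in 5 of 6.

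Recurrence depends on the number of reads, so circles of equal read number were compared. Of the 362 members with exactly 2 reads, 286 (79.0%) had both reads in the same library, against 69.4% of 569 circles of 2 to 4 exons and 57.1% of 56 circles of 1 exon. No library held more than 19.8% of all exonic back-splice reads. At 3 reads the shares found in 1 library were 42.9% and 38.8%, and at 4 reads they were 23.1% and 23.5% for members and for 2 to 4 exons. The classes lay closest at 4 reads in this range, and these shares were not tested. Of the 703 members with at least 2 reads, 373 (53.1%) had all of them in 1 library. In 6 of these there were 5 or more reads. The 2 with most were circRNA1779 of Foxp1, a forkhead transcription factor, with 7 reads in control 2, and circRNA4437 of Coq3, a methyltransferase of ubiquinone synthesis, with 7 reads in model 3. Both circles were picked with their values in view. The sources used here name no molecular identifiers, so each read was counted as it was deposited.

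Introns beside the circles were measured as the longer of both flanks. Its median in detected members was 12086 ± 1143 bases (SD, 6 libraries), against 11609 ± 586 for 2 to 4 exons. The difference of 476 ± 970 bases was within the spread between libraries (exact sign-flip permutation test, p = 0.281, higher in 5 of 6 libraries). Control 3 was the library with the shorter median in members, at 9911 against 11310 bases. Without it the difference was 852 bases (exact sign-flip permutation test, p = 0.0625, the smallest that 5 libraries allow). All differences left were then positive, which fixes this p whatever their size, so no conclusion is drawn from it. Circles of 1 exon stood apart, with a median of 23104 bases over all such circles against 10652 for all members. For the 13 members found in all libraries the median was 32314 bases. The longest flank among the most abundant circles was the 62406 bases downstream of circRNA612 of Prex2.

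A member took in a median of 35.4% of the exons of its host transcript, which had a median of 21 exons, and 19.4% of the transcript's length on the genome. This was computed for the 1606 members whose transcript was found and used. In 353 of them (22.0%) more than 50% of the exons lay between the paired sites, which held for 2.26% of circles of 2 to 4 exons. The classes were set by exon number, so a larger share in members is built into this contrast. The median acceptor lay 42.7% along the transcript and the median donor 69.1% along it. The linear RNA of the hosts had a median of 10.2 FPKM for hosts of members, 9.69 for hosts of circles of 2 to 4 exons and 10.9 for hosts of circles of 1 exon.

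Members often shared a splice site with another circle. At least 1 site was used by another exonic circle for 769 members (44.2%), against 32.1% of circles of 2 to 4 exons and 28.3% of circles of 1 exon. At the threshold the order was reversed, with 36.8% at exactly 5 exons and 38.2% at exactly 4. These shares were not tested. Members used 1563 acceptor and 1623 donor sites. An acceptor was shared by 2 or more members at 146 sites and by 3 or more at 28, and a donor by 2 or more at 112 sites and by 3 or more at 5. The most shared site was an acceptor of Atp9b, a putative phospholipid flippase, with 5 members of 5 to 12 exons but only 13 reads.

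The site with the most reads on members was an acceptor of Mkln1 (chromosome 4, 58714647, plus strand). The genome build behind the coordinates is not given in the sources used here. Mkln1 encodes muskelin, a subunit of the CTLH ubiquitin ligase. All 4 exonic circles from this acceptor were members, with 5, 7, 8 and 18 exons, and together they had 22, 17 and 30 reads in control and 21, 20 and 24 in model libraries. The groups overlapped. Of these 134 reads, 86 fell on the shortest circle, circRNA747, which ends 11001 bases from the acceptor. The 7 and 8 exon circles, circRNA748 and circRNA749, had 20 and 25 reads, and circRNA750 of 18 exons had 3, all in control 1.

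Fam208a, a subunit of the HUSH complex that silences repeats, also gave several circles from 1 acceptor. Its circRNA251 of 5 exons spans 3800 bases and had 65 reads, and circRNA252 of 10 exons spans 11930 bases and had 27. Both were low in model 2, with 2 and 1 reads, and had 14 or 15 and 8 or 9 in the other model libraries. Prex2, an exchange factor for the GTPase Rac, shared a donor instead. There circRNA612 of 12 exons had 50 of the 54 reads of 4 members, while the circles of 8, 10 and 15 exons had 1, 1 and 2. At Prex2 the ring with most reads was not the shortest, unlike Mkln1 and the members of Fam208a.

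**Figure D3:**
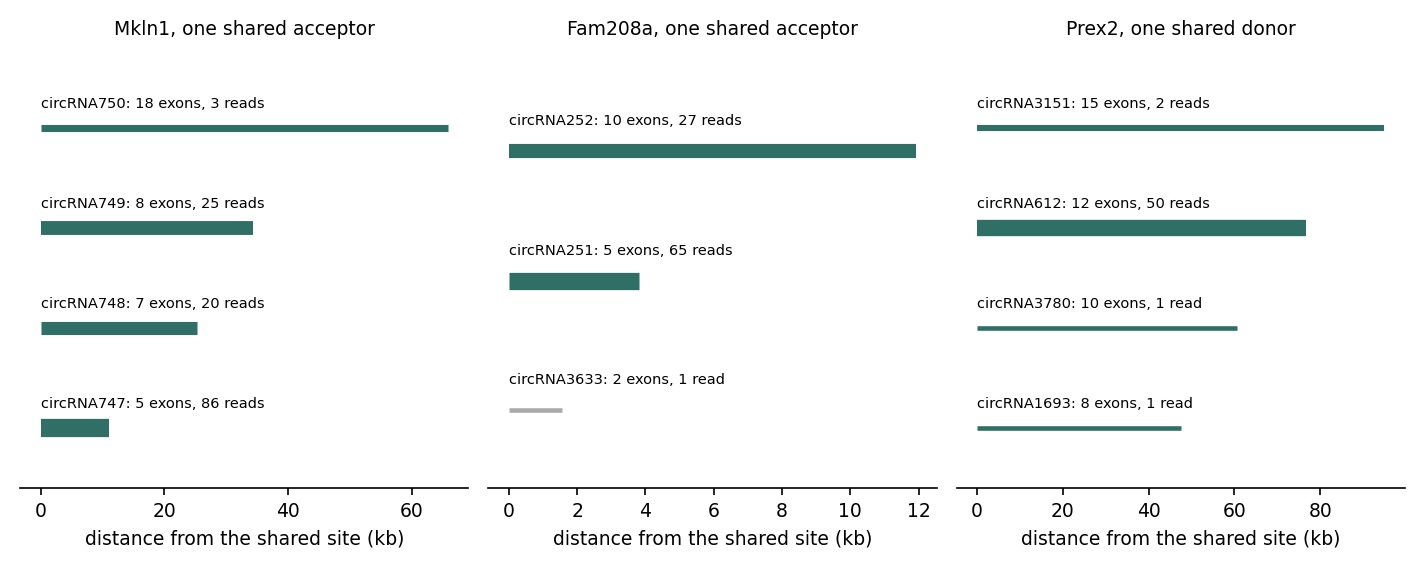
Circles of Mkln1, Fam208a and Prex2 that share 1 splice site, drawn to scale as distance from that site in kb; line width grows with the log of the reads, green marks 5 or more exons and grey fewer. The 5-exon circle had most reads at Mkln1 (86 of 134), and the 12-exon circle at Prex2 (50 of 54).

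The 15 members with the most reads carried 563 reads (14.5% of member reads), and 8 of them had 5 exons. The first was circRNA1168 (chromosome 9, 94463647 to 94481167, plus strand) of a gene listed as AABR07068272.1 and described as GRB10 interacting GYF protein 2, a factor that represses translation. It had 18, 15 and 14 reads in control and 17, 10 and 14 in model libraries. The groups overlapped, and the log2 ratio of model to control was -0.14 (edgeR, unadjusted p = 0.762, adjusted p = 0.985). The second, circRNA747 of Mkln1, had 12, 9 and 20 reads in control and 18, 11 and 16 in model. These groups overlapped too, with a log2 ratio of 0.22 (edgeR, unadjusted p = 0.63).

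The third, circRNA251 of Fam208a, had 9, 9 and 16 reads in control and 15, 2 and 14 in model. The low value was that of model 2, the library with the fewest reads. Scaled for library size by edgeR, the model values were 15.7, 2.40 and 12.3, so model 2 stayed low. The cause of this was not tested. The fourth, circRNA612 of Prex2 (chromosome 5, 7703776 to 7780390, minus strand), had 8, 11 and 4 reads in control and 7, 8 and 12 in model. It was the only one of the first 4 with over 5 exons, and it spans 76615 bases. The fifth, circRNA240 of Upf2, a factor of nonsense-mediated mRNA decay, holds 8 exons. It had 13, 6 and 13 reads in control and 7, 3 and 7 in model. The groups overlapped at 6 and 7 reads, with a log2 ratio of -0.82 ± 0.62 (SE, edgeR unadjusted p = 0.186). Linear Upf2 had 29.3, 26.5 and 29.6 FPKM in control and 26.5, 23.8 and 19.1 in model (limma, log2 difference -0.30, unadjusted p = 0.0527, adjusted p = 0.958).

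The other 10 had between 19 and 32 reads. They were circles of App, the amyloid precursor, of Fam208a and Mkln1 again, of Rreb1, a zinc finger factor downstream of Ras, and of Tbcel, a tubulin cofactor. Arhgap32, a GTPase-activating protein, Dock4, an activator of Rac and Rap, Sppl3, a protease within membranes, and Dcun1d4, of cullin neddylation, gave the remainder. In the plot of these 15 circles, only that of Dock4 had control and model libraries that did not overlap.

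**Figure D4:**
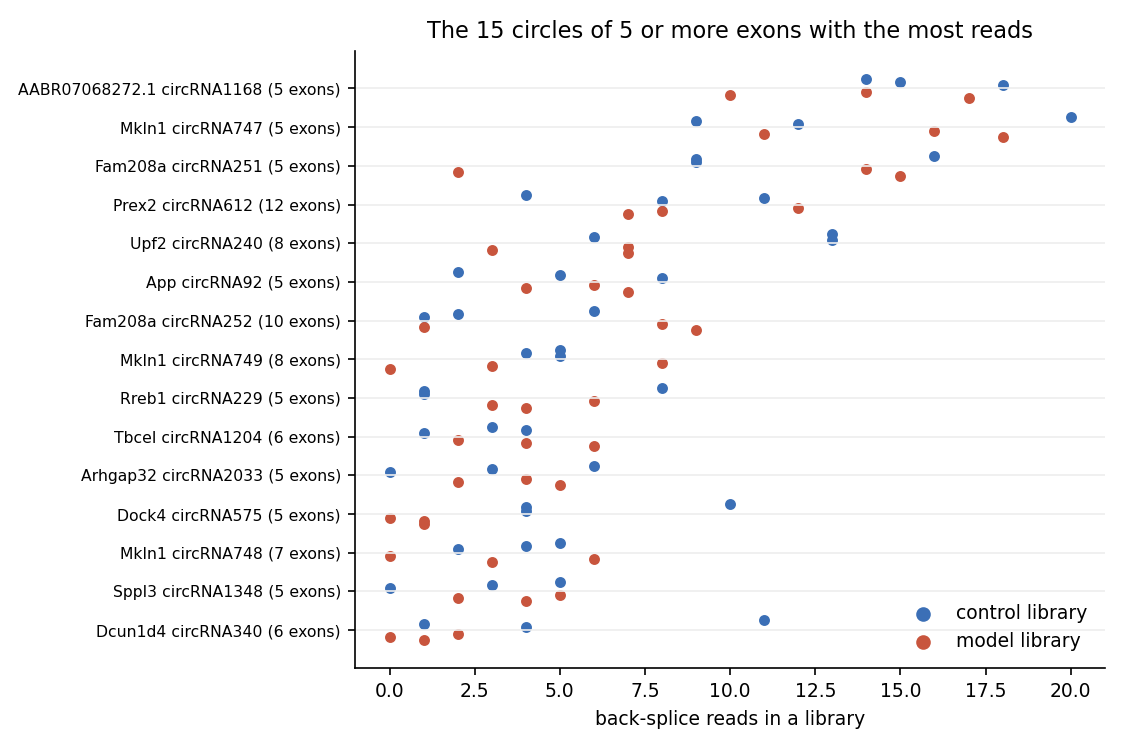
Back-splice reads in each library (x axis; blue, control; red, model) for the 15 circles of 5 or more exons with the most reads, listed by host, circle and exon number. The groups overlap for all but circRNA575 of Dock4, with 4, 4 and 10 reads in control and 1, 1 and 0 in model.

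The question of the design was whether circRNAs differ between control and model lungs. The members together had 710, 600 and 680 reads in control and 677, 481 and 732 in model libraries. The means were 663 ± 56.9 and 630.0 ± 132 (SD, n = 3 each), a log2 ratio of -0.07, with overlapping groups (exact permutation test, two-sided, p = 0.8). Without model 2, which was lowest, the log2 ratio was 0.09 (exact permutation test, p = 0.6).

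The share of exonic back-splice reads on members allows for library size. It was 28.6%, 28.5% and 26.6% in control and 28.6%, 24.7% and 25.9% in model. The widest apart were model 1 (95% Wilson interval 26.8% to 30.4%) and model 2 (22.8% to 26.7%), both of the model group. The means of 27.9% ± 1.12 and 26.4% ± 1.98 differed by -1.52 percentage points (exact permutation test, p = 0.4). Intervals cover counting error only. Members with a read numbered 432, 367 and 365 in control and 412, 316 and 418 in model, again overlapping (exact permutation test, p = 0.9). With 3 rats against 3 the smallest possible p was 0.1 in these tests, so a p that misses the threshold does not show that the groups were alike.

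**Figure D5:**
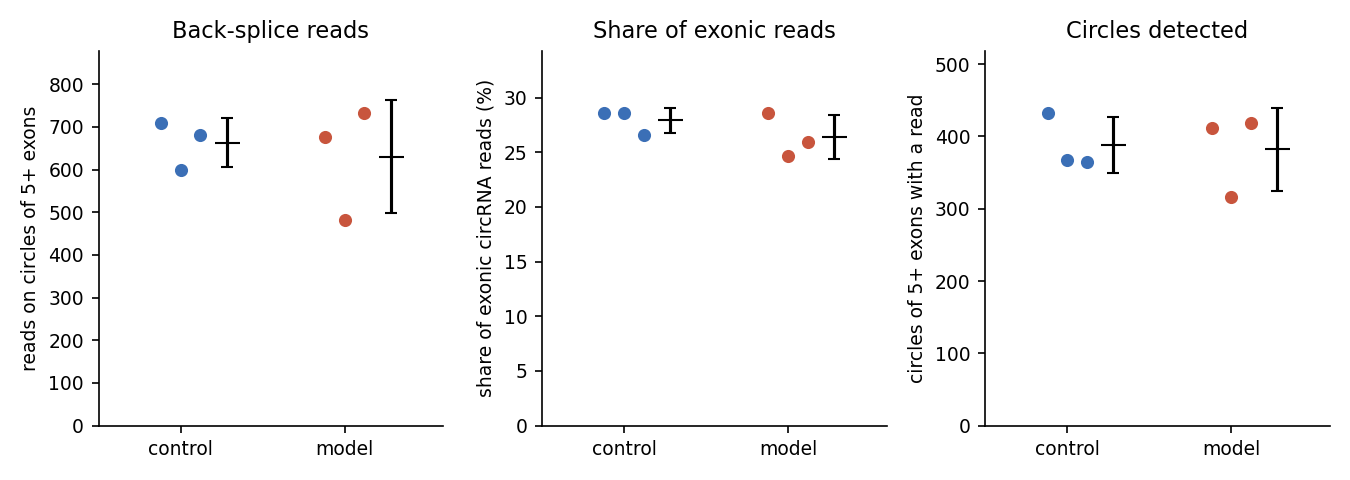
Back-splice reads on circles of 5 or more exons, their share of exonic circRNA reads (%) and the number detected, for each library (points) with group mean and SD (bars). Control and model overlap in all 3 measures, and model 2 is the lowest library in each, with 481 reads, 24.7% and 316 circles.

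Few members were held in common by any pair of rats. Pairs within a group shared between 54 and 72 members (median 67.5, 6 pairs), and pairs across groups between 42 and 80 (median 62, 9 pairs). Reads in control only were found for 755 members, in model only for 751 and in both for 235 (13.5%, against 19.1% of all exonic circles). Reads in all 3 control libraries and no model library were found for 6 members, or 0.345% against 0.251% of all exonic circles. Among them were circles of Gda, Myo18a, Tbc1d5, Clec16a and Ryr3 with 4 or 5 reads each, and they were named after their values were seen. The reverse held for 0 members, against 0.209% of all exonic circles. A count of 0 in a library allows up to 3 reads by counting error alone, though 0 in 3 libraries at once allows fewer in each. The circles had few reads and were picked from all members by this pattern, so they were not shown to differ.

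At least 10 reads, the minimum for a test per circle, were held by 39 members, which is 2.24% of them. By edgeR's quasi-likelihood test 1 of the 39 had an unadjusted p of at most 0.05, against 5.31% of all 226 circRNAs tested. None had an adjusted p below 0.05, against 0.442% of all tested, and DESeq2 gave 1 and 0. The groups did not overlap in 1 of the 39 members, against 11.1% of all tested. The members were higher in model in 21 cases and lower in 18, with a median log2 ratio of 0.22, against 0.10 for all circRNAs tested. The square root of the common dispersion was 54.1%, which is the variation between libraries beyond counting. With 1 library per rat, differences between rats and those from library preparation cannot be told apart in it.

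The 1 member was circRNA575 of Dock4 (chromosome 6, 60609626 to 60633969, plus strand), with 5 exons. It had 4, 4 and 10 reads in control and 1, 1 and 0 in model libraries. Every control value lay above every model value, with a log2 ratio of -2.84 ± 1.15 (SE, edgeR unadjusted p = 0.0139, adjusted p = 0.63, and 0.436 to 0.994 over the alternatives). Without control 3, where it was highest, the log2 ratio was -2.35 and the edgeR unadjusted p = 0.16. Linear Dock4 was 38.8, 28.6 and 34.2 FPKM in control and 32.0, 26.1 and 39.5 in model, which overlapped (limma, log2 difference -0.07, unadjusted p = 0.714).

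Next in order was circRNA340 of Dcun1d4, with 6 exons, at 4, 1 and 11 reads in control and 1, 0 and 2 in model. The groups overlapped, and the log2 ratio was -2.17 ± 1.13 (SE, edgeR unadjusted p = 0.056). The edgeR p was 0.0369 without control 2, 0.0426 without model 3, 0.0432 without TMM and 0.0395 without a filter on reads. It was above 0.05 in the other 8 alternatives, of which that at 6 or more exons repeats the main fit. The adjusted p was 0.436 or more in all of them. Without control 3, which held 11 of its 19 reads, it had too few reads to be tested. A pair of other circles of Dcun1d4 share 1 donor site, and their 23 reads were 5, 0 and 4 in control and 3, 4 and 7 in model. In the other direction the smallest p belonged to circRNA252 of Fam208a, at 1, 2 and 6 reads in control and 9, 1 and 8 in model, with a log2 ratio of 1.03 ± 0.86 (SE, edgeR unadjusted p = 0.232). Leaving out 1 library moved it between 0.54 (without model 1) and 1.86 (without control 3), with an edgeR unadjusted p of 0.0796 or more. It was followed by circRNA990 of AABR07013464.1, at 1, 0 and 2 against 3, 5 and 1 reads (edgeR unadjusted p = 0.243). The third was circRNA145 of Canx, a chaperone of the endoplasmic reticulum, at 1, 0 and 5 against 0, 4 and 6 reads (edgeR unadjusted p = 0.479). All 3 overlapped between groups.

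By host, 838 of the 1176 genes gave 1 member, 206 gave 2 and 132 gave 3 or more. For 567 hosts (48.2%) every exonic circle was a member. Prex2 gave the most, with 14 members and 91 reads among its 20 exonic circles and 147 reads. Pan3, a subunit of a deadenylase that shortens mRNA tails, gave 7 members with 36 of its 110 reads, and its most abundant circles have 3 and 4 exons. Agtpbp1, which trims glutamates from tubulin, gave 7 with 20 of 22 reads. Ank3, the membrane adaptor ankyrin G, gave 7 with all of its 14 reads, none of these circles having more than 4. Tc2n gave 6 members with 18 of 29 reads. Linear Pan3 was 26.0, 25.8 and 28.2 FPKM in control and 20.0, 22.0 and 20.7 in model, apart in all samples (limma, log2 difference -0.34, unadjusted p = 0.00379, adjusted p = 0.958). Its member circRNA59 had 4, 1 and 3 reads in control and 4, 2 and 3 in model, and overlapped. Pan3 had the smallest p among the linear RNAs of hosts of tested members, and 4.64% of all genes had an unadjusted p of at most 0.05. Other hosts were apart too. Among them, 1 locus of AABR07068272.1 was lower in model (limma unadjusted p = 0.0358), while another of that name overlapped. Upf2 and Cpsf6 were lower (limma unadjusted p = 0.0527 and 0.0832), and Agtpbp1 was higher (limma unadjusted p = 0.226). The share of all genes that were apart was not counted, so being apart is not read as a trait of the hosts.

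Host genes were also read by function, against 44.4% of all hosts of exonic circles that gave a member. Only a host with 5 or more exons can give a member, and the lists were not matched on exon number. Of 72 hosts for the cytoskeleton and its regulators, 47 (65.3%) gave 102 members with 301 reads, of which circRNA612, circRNA2033 of Arhgap32 and circRNA575 had the most. Their reads were 38, 53 and 54 in control and 45, 48 and 63 in model, which overlapped. The lists are partial, and that for ubiquitin does not hold Mkln1 nor that for chromatin Fam208a, whose circles are given above. Of the 49 hosts on the ubiquitin list, 33 (67.3%) gave 61 members with 88 reads, with circRNA105 of Cblb, a ubiquitin ligase of T cell signaling, and circRNA2013 of Trip12 among those with the most reads on that list. Of the 57 hosts on the chromatin list, 34 (59.6%) gave 61 members with 103 reads, and the most on that list were held by circRNA1485 of Kat6b, a histone acetyltransferase, with circRNA961 of Ash1l and circRNA1478 of Nsd3. The reads of the ubiquitin list were 21, 12 and 8 in control and 11, 16 and 20 in model, and those of the chromatin list 20, 17 and 14 against 13, 18 and 21. Both overlapped between the groups.

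Of 39 hosts for TGF-β signaling and matrix, the pathway most tied to fibrosis, 20 (51.3%) gave 35 members with 84 reads. They had 18, 11 and 10 reads in control and 15, 16 and 14 in model, within the same range. The list was led by circRNA989 of Npnt, the matrix protein nephronectin, with 13 exons and 14 reads. It had 2, 3 and 0 in control and 5, 0 and 4 in model. A pair of circles of Smad4, the shared mediator of TGF-β signals, came next. Of these, circRNA1581 with 7 exons had 4 reads in control 2 and 7 in model 2 and none in the other 4 libraries, and circRNA437 with 6 exons had 3, 0 and 2 against 0, 1 and 2. Of 20 hosts on the list for lung endothelium, 11 (55.0%) gave 24 members with 61 reads. In front were circRNA543 of Epas1, circRNA36 of Hmcn1 and circRNA2532 of Vwf, and the cells these circles came from were not measured. Of 25 genes known as circRNA hosts elsewhere 13 (52.0%) gave 29 members, led by those of Pan3 and Foxp1. Of 6 hosts that encode back-splicing factors, 2 (33.3%) gave 1 member each, circRNA1620 of Hnrnpm and circRNA38 of Dhx9, with 5 reads in all. The shares of these lists were not tested. No exonic circle came from the 12 fibrosis genes.

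The linear RNA of the proteins that make, export or degrade circRNAs was measured beside them. Of 34 such genes tested, 16 were higher and 18 lower in model, with a median log2 difference of -0.01, against -0.0018 for all genes. By limma 4 had an unadjusted p of at most 0.05, which is to be read against 4.64% of all genes, and 0 an adjusted p below 0.05. Those lower in model included Mbnl2, a muscleblind splicing factor, at 35.1 ± 2.79 against 27.5 ± 2.93 FPKM (control against model, limma log2 difference -0.34, unadjusted p = 0.0141), and Sf3b1, of the U2 snRNP, at 31.4 ± 1.53 against 26.5 ± 1.96 FPKM (limma unadjusted p = 0.0279). Higher was Ythdf2, a reader of methylated adenosine that promotes decay, at 10.0 ± 0.119 against 12.3 ± 0.635 FPKM (limma log2 difference 0.27, unadjusted p = 0.0106). All 4 had an adjusted p of 0.958 by limma. Adar and Dhx9, which act against back-splicing, differed by 0.00045 and -0.07 on the log2 scale.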

How the data were processed

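Ribosomal RNA-depleted lung libraries of 3 control and 3 model rats were grouped by their labels. Per circRNA, the authors deposited unnormalized back-splice counts, called with CIRCexplorer from Tophat-fusion alignments, and SRPBM, a signal scaled per library. They also deposited FPKM and coverage, a signal, for transcripts from StringTie. The methods name Tophat2 for the linear reads, and the submitters' processing notes name HISAT2. The genome build is not given in the sources used here. All 24 value columns matched a sample.

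Rows of the exonic type with at least 5 exons were taken. The members and gene lists were chosen with earlier results of these data known. Counts of circRNAs with at least 10 reads were compared by edgeR 4.0.16 (quasi-likelihood, TMM, Benjamini-Hochberg) in R 4.3.3, and DESeq2 1.42.0 was an alternative. FPKM were summed per gene, kept when above 0 in at least 3 samples, and compared as log2(FPKM + 1) by limma 3.58.1 with trend, on which scale changes of low genes are understated. Both fits were tested on simulated data, and at the read numbers of these circRNAs edgeR found only a minority of the changes put in. The simulated counts varied less between libraries than these data, whose common dispersion was 0.293. Single values were compared by exact permutation and classes within libraries by exact sign flips, all two-sided. P-values measure the spread between these rats.

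Named circles were the 15 with most reads, those in all libraries, those at p of at most 0.05 or among the 3 smallest p in each direction, the 3 with most exons and the 3 longest with at least 2 reads, those of the 5 hosts with most members, and 3 per gene list. Exceptions are stated, and some items that the rule takes are not reported here. Names were matched as the table gives them, and overlapping or near-identical genes were not separated. Other software was scipy 1.17.1, numpy 2.4.6, pandas 2.3.3 and matplotlib 3.10.9 under Python 3.11.15.

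Replicate numbers were not treated as pairs. Alternatives left out each library, blocked on the replicate number, or changed the filter, scaling, exon threshold or test. Sequences of the circles were not analysed here, nor were the miRNA libraries.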

Additional observations from a re-analysis of the deposited data

How the results depend on the processing

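Leaving out 1 library at a time moved the log2 ratio of member reads between -0.196 and 0.0869, turning its sign without model 2, and that of members detected between -0.0921 and 0.0971, turning it without control 1 (0.0617) or model 2. The exact p of these stayed at 0.4 or above. With circles of 4 or more exons the log2 ratio of circles detected was 0.0331. The difference in reads per detected circle lay between -0.374 and -0.329 and that in recurrence between -15.9 and -14.3 percentage points, with p = 0.0625 in each exact test, the smallest that 5 libraries allow. Against circles of 1 exon, the median flanking intron of members was -18915 bases apart rather than 476 bases (exact permutation test, p = 0.0312). The number of members at an unadjusted edgeR p of 0.05 or less, 1 of 39, was 2 without TMM, 7 of 1741 without a filter, 8 of 128 at 5 or more reads, 0 of 23 at 6 or more exons, and 0 to 2 without a library. It was 2 without control 2 or without model 3 and 0 without control 3, and 0 had an adjusted p below 0.05 in any of these fits. The count of 4 splicing and decay genes by limma was 1 on the TPM scale and 2 to 5 without a library, with 2 without control 1 or without model 3. The cause was not tested. In 70 other recomputations of these comparisons the direction and the side of the threshold were kept, or the count stayed within 1.5 times. Many of these could not have crossed the threshold of 0.05. Control against model tests allow no p below 0.1, and sign flips over 5 libraries none below 0.0625. Same-numbered control and model samples did not deviate together for circRNAs (r between -0.124 and -0.0189). For genes they did so weakly, with r between 0.0412 and 0.0945, above the -0.0887 to 0.000751 of unlike-numbered samples. These stayed below the r of 0.1 set for treating them as pairs. With the replicate block, 0 members and 2 of the genes reached p of 0.05. The paired exact p was 0.75 for reads, 0.5 for share and 1 for circles detected. At these depths a circle of 1 or 2 reads cannot be compared between groups.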
